A study of Mus musculus with 4 samples.

Results

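Forkhead (Fox) genes encode transcription factors that bind DNA through a winged-helix domain. Accessible chromatin at these genes was compared between Snf5 CKO and control female germ cells. The set held every RefSeq protein-coding gene whose symbol is Fox, a letter from a to s and a digit, with Foxl2 left out, which gave 43 of the 21887 protein-coding genes placed on the mm10 build. All were chosen by name and not by any measured value. There were 2 libraries from Snf5 CKO embryos, with a conditional knockout of Snf5, and 2 libraries from control embryos. All were made by ATAC-seq, in which a transposase cuts and tags open DNA, from female C57BL/6 germ cells at embryonic day 15.5 sorted by Oct4-EGFP. Every group carried this reporter, and neither the Cre driver nor the number of animals behind a library is given in the sources used here. Replicates may therefore be technical.

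Many forkhead proteins open or mark chromatin during development, and most are known for setting up particular tissues: FoxA in endoderm, FoxC and FoxF in mesoderm, FoxN1 in thymus. FoxO proteins act downstream of PI3K and Akt, and Foxo3 keeps primordial follicles dormant in the mouse ovary. FoxM1 drives mitotic genes. Snf5, the protein of Smarcb1, is a core subunit of the SWI/SNF remodeller, which slides and evicts nucleosomes.

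Peak lists, 1 per library, were what was deposited. The lists held 45422 peaks over 24.3 Mb in Snf5 CKO 1 and 28625 peaks over 16.9 Mb in Snf5 CKO 2, against 39465 peaks over 27.4 Mb in Control 1 and 36730 over 25.2 Mb in Control 2. Read depth is unknown, and Snf5 CKO 2 had the shortest list. Smarcb1, the targeted gene, had 0 bases under a peak at its gene ends in both Snf5 CKO libraries, against 834 and 1139 bp in the controls. The 10 germ cell markers all had a peak at a gene end in every library. Markers of other cells were often open too: 7 of 8 ovarian supporting cell markers in each library, 7 and 5 of 8 stroma and mesenchyme markers in the Snf5 CKO libraries against 7 and 7 in the controls, and 2 and 2 of 8 endothelium and blood markers in Snf5 CKO against 4 and 3 in the controls. The blood markers Ptprc and Gata1 had no peak within 10 kb in any library. At the kept markers the median log2 ratio of Snf5 CKO to control covered bases was −0.60 for germ cells (10 genes) and −0.61 for supporting cells (7). It was −0.96 for stroma (5) and −0.75 for endothelium and blood (2), beside −0.38 for all kept genes. With so few genes these medians were not compared by a test. The part of other cells in the forkhead values was not tested. In bulk samples, fewer cells with open DNA and less open DNA per cell cannot be told apart.

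Most forkhead genes were open at their ends in both genotypes. Open here means a peak within 1 kb of either annotated end of the gene. By this rule 33 and 32 members were open in Snf5 CKO 1 and 2, against 37 and 38 in Control 1 and 2. Among all genes 60.4% and 56.4% were open in the Snf5 CKO libraries, against 63.3% and 63.0% in the controls. Of the 37 members open in both controls, 32 (86.5%) kept a gene-end peak in both Snf5 CKO libraries as well, beside 89.6% of all genes. Another 4 (10.8%), Foxi2, Foxl1, Foxn1 and Foxn4, had no such peak in either Snf5 CKO library, beside 4.84% of all genes. No member was gained out of 5 open in neither control, where the share over all genes was 0.534%. With 4 members the count is small, and no test of the share was made. Foxa1, Foxi1, Foxp3, Foxr2 and Foxs1 had no peak at a gene end in any library.

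The promoters differed widely in sequence. RefSeq promoters (GRCm38.p6, 250 bases before to 50 after a start site) were matched for 27 of the 43 members, as 32 promoters. They held a median of 19.0 CpG dinucleotides, with a range of 3 to 59, against 13.0 over all protein-coding promoters. The promoters of members with a gene-end peak in all libraries had a median of 25 CpG over 21 promoters. Those of the 3 lost members with a promoter sequence had 8. Over all genes these medians were 21 for kept and 11 for lost genes. Kept and lost refer here to either gene end and not to the promoter itself. Of the 21 promoters of kept members, 13 and 12 lay at least partly under a peak in Snf5 CKO 1 and 2, against 14 and 13 in Control 1 and 2. The value of 8 is that of Foxn1, whose promoter had no covered base in any library. The promoters printed here are those of Foxi2, which lost its peak, of Foxr1, where the peak edge lay inside the promoter in Snf5 CKO, and of Foxo3 and Foxj3, which lay wholly under a peak in every library. CpG dinucleotides are in capitals.
Foxi2, chr7:135410117-135410416, plus strand, 5 CpG: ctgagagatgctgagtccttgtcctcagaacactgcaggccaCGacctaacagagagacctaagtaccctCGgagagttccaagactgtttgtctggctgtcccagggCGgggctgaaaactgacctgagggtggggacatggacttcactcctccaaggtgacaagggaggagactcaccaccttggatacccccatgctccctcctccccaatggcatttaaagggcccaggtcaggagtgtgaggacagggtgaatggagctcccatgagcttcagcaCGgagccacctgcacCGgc
Foxr1, chr9:44440819-44441118, minus strand, 16 CpG: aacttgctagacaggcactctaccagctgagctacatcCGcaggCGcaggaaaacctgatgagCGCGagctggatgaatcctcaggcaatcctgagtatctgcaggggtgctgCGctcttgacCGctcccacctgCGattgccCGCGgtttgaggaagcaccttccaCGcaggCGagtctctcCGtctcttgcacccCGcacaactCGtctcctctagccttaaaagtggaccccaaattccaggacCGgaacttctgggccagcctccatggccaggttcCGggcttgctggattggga
Foxo3, chr10:42276646-42276945, minus strand, 35 CpG: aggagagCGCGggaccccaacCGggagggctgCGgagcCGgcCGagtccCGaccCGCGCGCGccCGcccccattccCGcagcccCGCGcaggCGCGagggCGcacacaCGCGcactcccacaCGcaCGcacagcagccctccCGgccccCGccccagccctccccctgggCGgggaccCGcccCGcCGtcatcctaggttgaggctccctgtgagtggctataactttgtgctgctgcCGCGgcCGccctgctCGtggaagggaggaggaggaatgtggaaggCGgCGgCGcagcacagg
Foxj3, chr4:119539411-119539710, plus strand, 42 CpG: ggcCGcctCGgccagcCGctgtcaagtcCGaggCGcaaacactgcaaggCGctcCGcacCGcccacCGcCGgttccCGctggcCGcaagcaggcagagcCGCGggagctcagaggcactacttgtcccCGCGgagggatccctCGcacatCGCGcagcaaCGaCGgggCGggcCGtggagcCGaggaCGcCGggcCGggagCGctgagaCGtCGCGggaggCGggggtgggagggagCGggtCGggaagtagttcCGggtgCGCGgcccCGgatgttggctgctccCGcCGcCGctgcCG

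The forkhead recognition sequence TGTTTAC, searched on both strands, was rare in these promoters. It was in 1 of 32 (3.12%), that of Foxa1, and in 3.01% of all protein-coding promoters. The shorter core TGTTTA, which the longer sequence contains, was in 5 (15.6%) and in 11.5% of all. These shares count promoters and not genes. The 5 belonged to Foxa1, Foxp3 and Foxp1 alone, and Foxp1 had more than 1 of them. In the Foxa1 promoter the match begins at base 110 from the 5′ end, in capitals here. A match describes letters and not a bound site.
Foxa1, chr12:57546062-57546361, minus strand: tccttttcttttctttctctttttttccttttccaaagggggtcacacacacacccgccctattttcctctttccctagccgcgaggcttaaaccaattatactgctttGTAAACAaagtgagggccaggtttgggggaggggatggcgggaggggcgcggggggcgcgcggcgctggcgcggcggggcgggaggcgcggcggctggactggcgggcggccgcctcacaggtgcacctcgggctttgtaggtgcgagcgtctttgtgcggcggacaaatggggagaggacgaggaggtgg
This promoter was partly under a peak in every library, over 203 and 66 of its bases in Snf5 CKO 1 and 2, against 105 and 181 in Control 1 and 2. The values of the genotypes overlapped. Its start site lies inside the annotated gene, farther than 1 kb from either end, so the gene-end windows did not see it. The peak region over this promoter also lay within 1 kb of an end of the gene Ttc6.

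The 4 lost members had control peaks of different kinds, and Foxi2 was the only one lost under every alternative tried. With windows of 500 bp Foxl1 and Foxn1 were no longer lost, and Foxa3 and Foxe1 were. With windows of 2 kb Foxb1 took the place of Foxl1. Foxn4 was no longer lost with peaks of −log10 q 3 or more or with lists of the same length, and none of Foxl1, Foxn1 and Foxn4 was when 500 bp of cover were asked for. Foxi2, of the FoxI subfamily known from ion-transporting epithelia, lay at chromosome 7, 135410367 to 135413622. It had no peak in the gene plus 10 kb in either Snf5 CKO library, against peaks of 815 bp in Control 1 and 626 bp in Control 2 over its start site. The authors' fold enrichment, which is each peak's own value within its list, was 3.90 and 3.79 for these control peaks. The promoter shown above had 0 covered bases in both Snf5 CKO libraries, against 123 and 92 in the controls.

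Foxl1, a gene of gut mesenchyme, had no gene-end peak in Snf5 CKO, against peaks of 1201 and 751 bp in the controls that lay inside the gene and reached into the window. They had fold enrichments of 3.14 and 3.45. Snf5 CKO 1 had small peaks nearby, of 200 and 292 bp, between Foxl1 and its neighbour Foxc2. Foxn1, which thymic epithelium requires, had control peaks of 585 and 561 bp, with fold enrichments of 4.65 and 4.42, near its lower-coordinate end. The gene is on the minus strand, so this is its 3′ end. Its RefSeq promoter had no covered base in any library. Foxn4, a gene of retinal progenitors, had a peak of 450 bp in Control 1 and of 341 bp in Control 2, near the same end but without a shared base. Its loss therefore rests on 2 separate control peaks.

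Loss was also read in a wider window. Its size grows with gene length, whose median was 5591 bp for the members and 17169 bp for all genes. Shares of members and of all genes in this window therefore come from windows of unlike size, here and below. In the gene plus 10 kb on either side, 42 members had a peak in both controls, and 4 of these (9.52%) had none in either Snf5 CKO library, beside 2.52% of all genes. None of the 36 members with a peak in both Snf5 CKO libraries lacked one in both controls, beside 0.967% of all genes. The 4 were Foxi2 and Foxn4, and also Foxb1 and Foxs1. At Foxi2 and Foxn4 the control peaks in this window were those at the gene ends, so the wider window added no loss there. Foxb1, a gene of the developing brain, had no Snf5 CKO peak against 2 small peaks in each control, 654 bp in Control 1 and 709 bp in Control 2 in all. The region at which both controls had a peak, of 399 and 429 bp, lay near a gene end, but in Control 1 its peak was wholly outside the 1 kb window, so Foxb1 did not count as lost at its ends. At Foxs1 the control peaks, of 1029 and 919 bp, lay 9314 bp from the gene, and only 687 and 327 bp of them fell within the 10 kb.

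**Figure D1:**
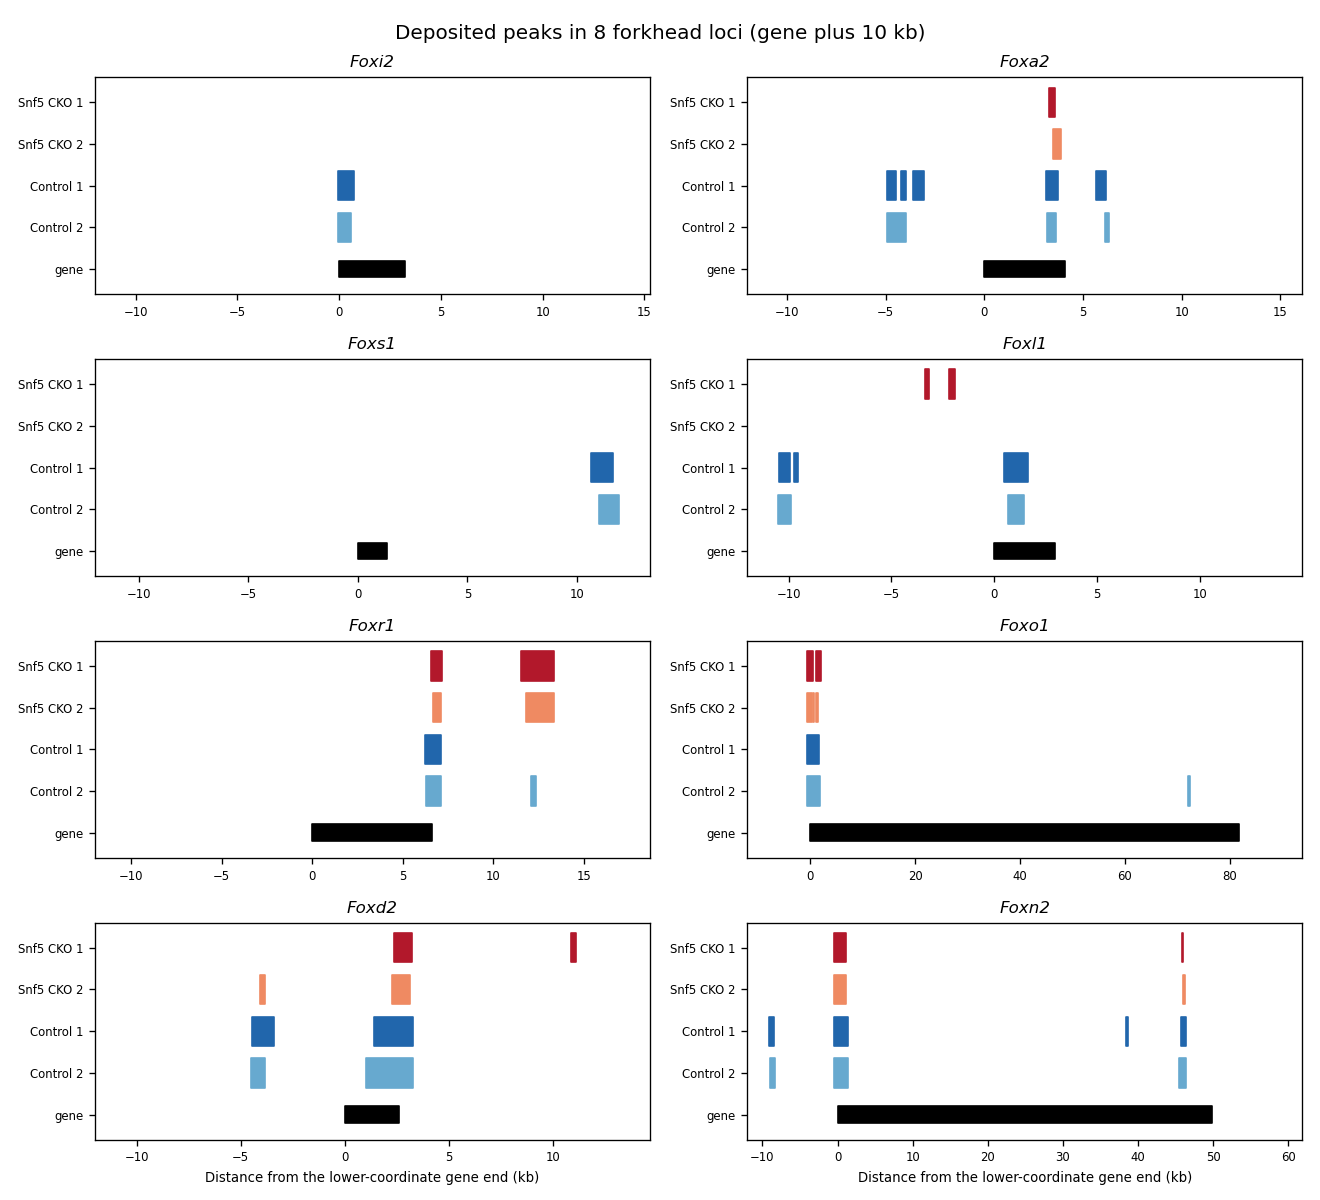
Deposited peaks of each library (coloured bars, Snf5 CKO above control) in 8 forkhead loci, by distance in kb from the lower-coordinate gene end, with the gene in black. Foxi2 has peaks in the controls alone, of 815 and 626 bp, while Foxr1 has a peak of 1820 and 1542 bp beyond its right-hand end in Snf5 CKO, against none in Control 1 and 289 bp in Control 2.

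At members that kept a gene-end peak, less DNA was covered in Snf5 CKO. The covered bases are those of the gene-end windows that lay under a peak. Over the 32 kept members their median was 906 and 811 bp in Snf5 CKO 1 and 2, against 1310 and 1186 bp in Control 1 and 2. Over all 12030 kept genes the medians were 844 and 791 bp in Snf5 CKO, against 1103 and 1080 bp in the controls. In 24 of the 32 members (75%) both Snf5 CKO values were below both control values, beside 74.9% of all kept genes, so this share was near the background. No kept member had more covered bases in both Snf5 CKO libraries than in both controls, beside 1.66% of all. On the log2 scale the Snf5 CKO to control ratio had a median of −0.48, with quartiles of −0.70 and −0.27, beside −0.38 for all kept genes.

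How many members were lower or higher depended on how the lists were scaled. With each library's covered bases divided by its total covered length, which raises Snf5 CKO 2 the most, 14 of 38 members with a gene-end peak were lower in both Snf5 CKO libraries and 4 were higher. Foxn2, Foxn3 and Foxo4 were among the higher ones. Without this scaling the counts were 28 lower and 0 higher, and the count of higher members was 2 without Snf5 CKO 2 and 3 without Control 2. Over all genes the shares were 23.7% lower and 11.1% higher with the scaling, and 70.4% and 1.92% without it. The scaled median log2 ratio was −0.16 for the kept members and 0.01 for all kept genes. With 2 libraries against 2 the smallest two-sided exact permutation p is 0.33, so this test cannot pass a threshold of 0.05 at any 1 gene, and no other test of a gene was made.

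**Figure D2:**
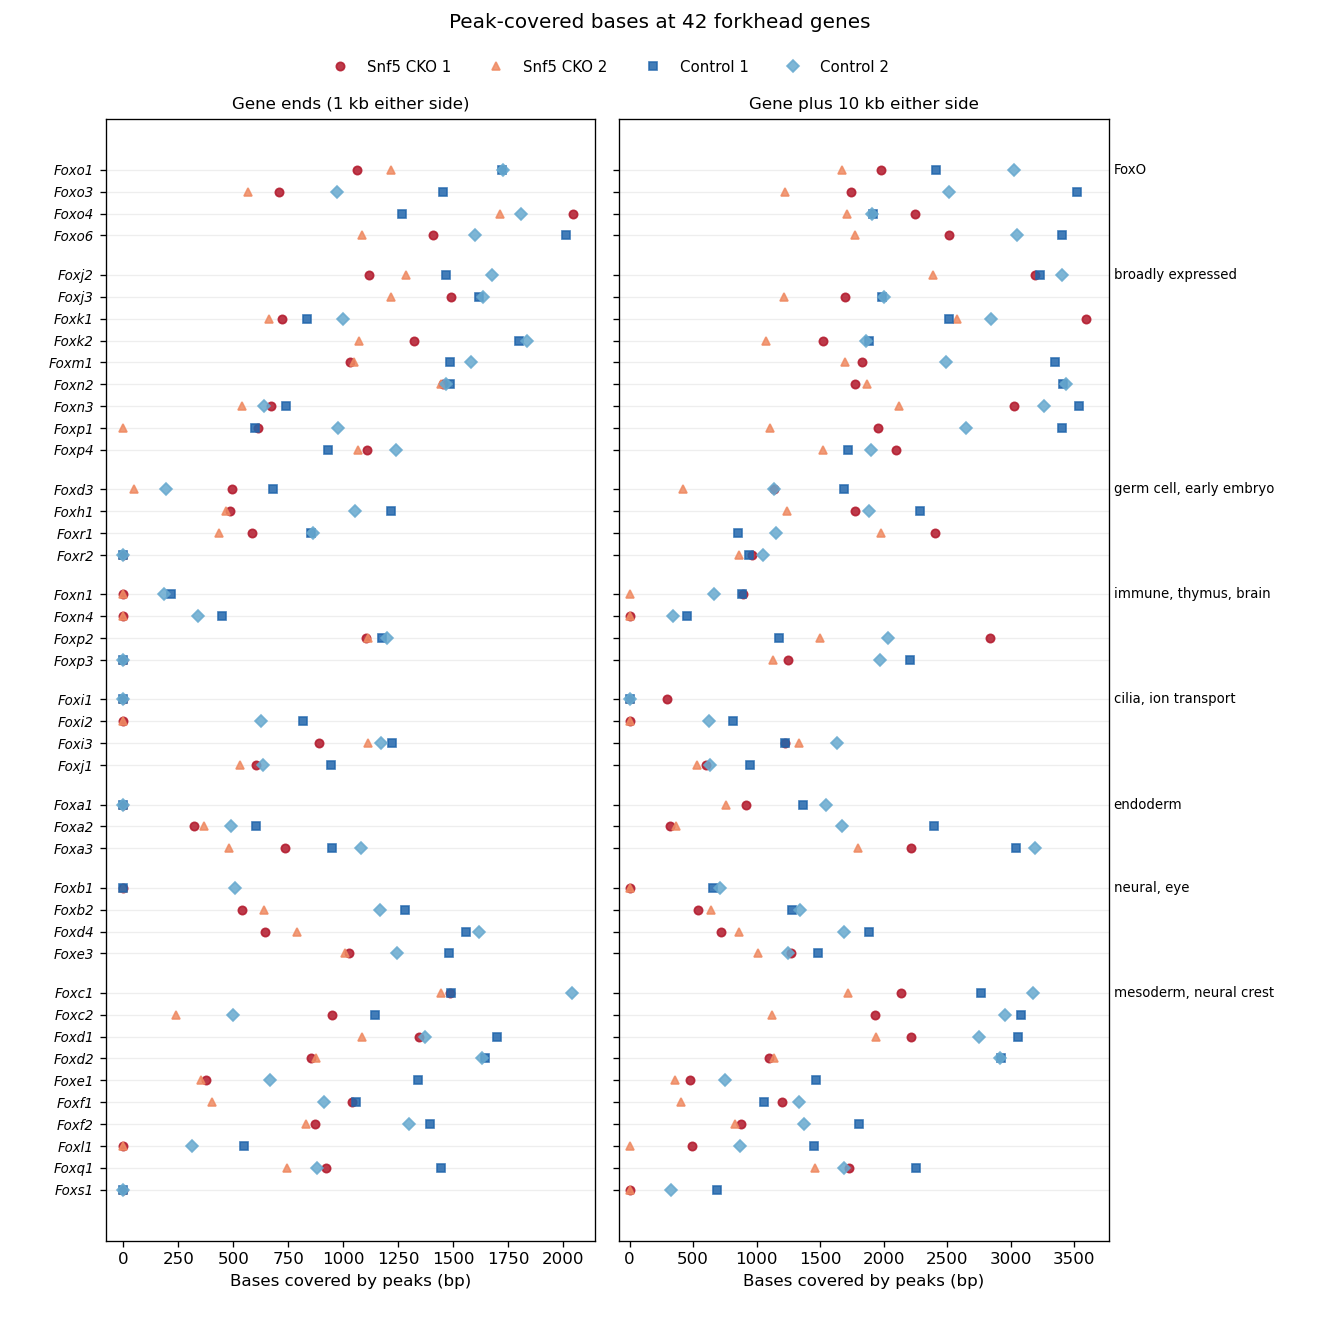
Bases covered by peaks (bp) at 42 forkhead genes, at the gene ends (left) and in the gene plus 10 kb (right). Each symbol is 1 library, and genes are ordered by the groups of the text. Of the genes drawn, both Snf5 CKO symbols lie left of both control symbols at 28 on the left and 30 on the right.

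Among the FoxO genes, 3 of 4 had fewer covered bases at the gene ends in both Snf5 CKO libraries, beside 70.4% of all genes. Foxo3 had 706 and 565 bp in Snf5 CKO 1 and 2, against 1453 and 970 bp in the controls. It was the FoxO gene that stayed lower with scaling. Its peaks formed a pair in every library, over the start site and upstream of it. The peak over the start site measured 568 and 452 bp in Snf5 CKO, against 1171 and 667 bp in the controls, and the one upstream 970 and 770 bp, against 1228 and 1238 bp. The 300-base promoter shown above lay wholly under a peak in all 4 libraries, so the covered length differed at its borders and not within it.

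Foxo1 had 1062 and 1215 bp at the gene ends in Snf5 CKO, against 1721 and 1726 bp in the controls. Its control region was an unbroken peak in each control, of 2409 and 2637 bp, and was split into 2 peaks in Snf5 CKO 1 and 3 in Snf5 CKO 2, which covered 1982 and 1668 bp. Over the 32 kept members, 8 and 6 had 2 or more gene-end peaks in Snf5 CKO 1 and 2, against 7 and 10 in Control 1 and 2. Foxo6 had 1410 and 1087 bp in Snf5 CKO, against 2012 and 1597 bp in the controls. Foxo4, on chromosome X, overlapped between genotypes, with 2042 and 1711 bp in Snf5 CKO, against 1268 and 1807 bp in the controls. The peak at its lower-coordinate end was shorter in Snf5 CKO, with 937 and 927 bp against 1268 and 1647 bp, but a further peak at the other end measured 1105 and 784 bp in Snf5 CKO, against none in Control 1 and 263 bp in Control 2. That end is shared with the gene Gm614.

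The 9 broadly expressed members, which include Foxm1 and the FoxK pair, were all open in both controls, and 8 were kept, beside 89.6% of all genes. Foxm1 had 1029 and 1050 bp at the gene ends in Snf5 CKO, against 1484 and 1581 bp in the controls, in a region it shares with Rhno1. Foxk2 had 1323 and 1073 bp in Snf5 CKO, against 1799 and 1835 bp in the controls, and Foxj3 had 1490 and 1216 bp, against 1619 and 1635 bp. The region over the Foxj3 start site also lay within 1 kb of an end of the gene Frg2f1. For Foxm1, Foxk2 and Foxj3 the groups did not overlap. With scaling only Foxk2 of these 3 stayed lower.

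Foxk1 combined a shorter gene-end peak with peaks inside the gene that the controls lacked. At its gene ends it had 722 and 662 bp in Snf5 CKO, against 836 and 999 bp in the controls. Inside the gene lay 2 regions with a peak in both Snf5 CKO libraries and in neither control, the only gained regions of all forkhead loci. They were at chromosome 5, 142440090 to 142440857, with peaks of 768 and 391 bp, and 142451545 to 142452121, with peaks of 272 and 577 bp. Foxp1, a B cell and heart gene, was the exception among the 9: it had no gene-end peak in Snf5 CKO 2 and 611 bp covered in Snf5 CKO 1, against 601 and 974 bp in the controls. One of its other RefSeq start sites, farther inside the gene, had 44 CpG and lay wholly under a peak in all libraries.

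In the group with germ cell or early embryo roles, Foxh1, the DNA-binding partner of Smad proteins in Nodal signalling, did not overlap between genotypes. It had 487 and 468 bp at its ends in Snf5 CKO, against 1216 and 1053 bp in the controls, in a region shared with Ppp1r16a, and stayed lower with scaling. Foxd3, a gene of pluripotent cells and neural crest, overlapped between genotypes, with 494 and 49 bp in Snf5 CKO, against 679 and 196 bp in the controls. Its region lies inside the gene, and its RefSeq promoter of 25 CpG had no covered base in any library.

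Foxr1 was the exception in this group and the only forkhead gene with more covered bases in both Snf5 CKO libraries across the gene plus 10 kb. These were 2404 and 1976 bp in Snf5 CKO, against 852 and 1153 bp in the controls, while at the gene ends it had fewer, 584 and 434 bp against 852 and 864 bp. The excess came from chromosome 9, 44445772 to 44447591, 4904 bp from the gene on its upstream side, with peaks of 1820 and 1542 bp in Snf5 CKO, against none in Control 1 and 289 bp in Control 2. No other protein-coding gene had an end within 1 kb of it. Within the promoter shown above, 293 and 202 of the 300 bases were covered in Snf5 CKO, against all 300 in each control. Foxr2, on chromosome X, had no gene-end peak, and the peak in its flank overlapped between genotypes, with 962 and 860 bp in Snf5 CKO against 938 and 1050 bp in the controls.

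Many members that pattern the embryo were open in these libraries. Of the 10 genes of mesoderm and neural crest, 9 were open in both controls, 8 of these were kept, beside 89.6% of all genes. Of the 9 open in both controls, 6 had fewer covered bases at the gene ends in both Snf5 CKO libraries. This stands beside 70.4% of all genes with a gene-end peak in any library. Foxs1, the other of the 10, had no gene-end peak in any library. Foxd2 had 853 and 878 bp at its ends in Snf5 CKO, against 1646 and 1630 bp in the controls. Foxe1, a thyroid gene, had 378 and 355 bp, against 1340 and 668 bp. Foxf2 had 873 and 831 bp, against 1396 and 1298 bp. These 3 stayed lower with scaling. Foxc2, Foxf1 and Foxq1 were kept with overlapping values.

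Of the 5 neural and eye genes, 4 were open in both controls, and all 4 were kept, beside 89.6% of all genes. Foxb2 had 539 and 641 bp at its ends in Snf5 CKO, against 1280 and 1166 bp in the controls, and Foxd4 had 644 and 791 bp, against 1558 and 1617 bp. Both stayed lower with scaling. The 3 endoderm genes had fewer covered bases in the gene plus 10 kb in both Snf5 CKO libraries, beside 62.0% of all genes. At Foxa2, a pioneer factor gene of endoderm and floor plate, the controls had 5 and 3 peaks and each Snf5 CKO library had 1. Covered bases were 321 and 368 bp in Snf5 CKO, against 2392 and 1675 bp in the controls, a log2 ratio of −2.26 with 100 bp added to each mean. The 2 lost regions lay in its flanks, 3957 and 1551 bp from the gene ends.

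Of the 4 genes of cilia and ion transport, Foxj1, the master gene of motile cilia, was kept with 602 and 529 bp in Snf5 CKO, against 946 and 634 bp in the controls. The Foxj1 region also lay within 1 kb of an end of the gene Rnf157. Foxi3 was kept with 892 and 1114 bp in Snf5 CKO, against 1221 and 1171 bp in the controls. With scaling neither Foxj1 nor Foxi3 stayed lower. Foxi1 had no peak within 10 kb except 293 bp in Snf5 CKO 1. Among the immune, thymus and brain genes, Foxp2 was kept with nearly equal values, 1103 and 1112 bp in Snf5 CKO, against 1177 and 1201 bp in the controls. Foxp3, the gene of regulatory T cells, had no gene-end peak, and the peaks in its flanks lay at the ends of Ppp1r3f and Ccdc22.

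Across the gene plus 10 kb, 31 of the 43 members (72.1%) had fewer covered bases in both Snf5 CKO libraries, beside 62.0% of all genes with a peak, and 1 (2.33%) had more, beside 3.83%. The count of members with more was 7 without Snf5 CKO 2 and 4 without Control 2. The median was 1523 and 1130 bp in Snf5 CKO 1 and 2, against 1887 and 1859 bp in Control 1 and 2. Over all genes it was 1174 and 961 bp in Snf5 CKO, against 1581 and 1484 bp. The median log2 ratio, with 100 bp added to each mean, was −0.60 for the members and −0.43 for all genes, while the SD between the Snf5 CKO libraries of this median was 0.32. With scaling 23 members were lower and 5 higher, beside 30.0% and 15.4% of all genes, and the medians were −0.27 and −0.09. The 5 higher were Foxk1, Foxo4, Foxp2, Foxp4 and Foxr1. No test of the difference between forkhead and other genes was made.

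**Figure D3:**
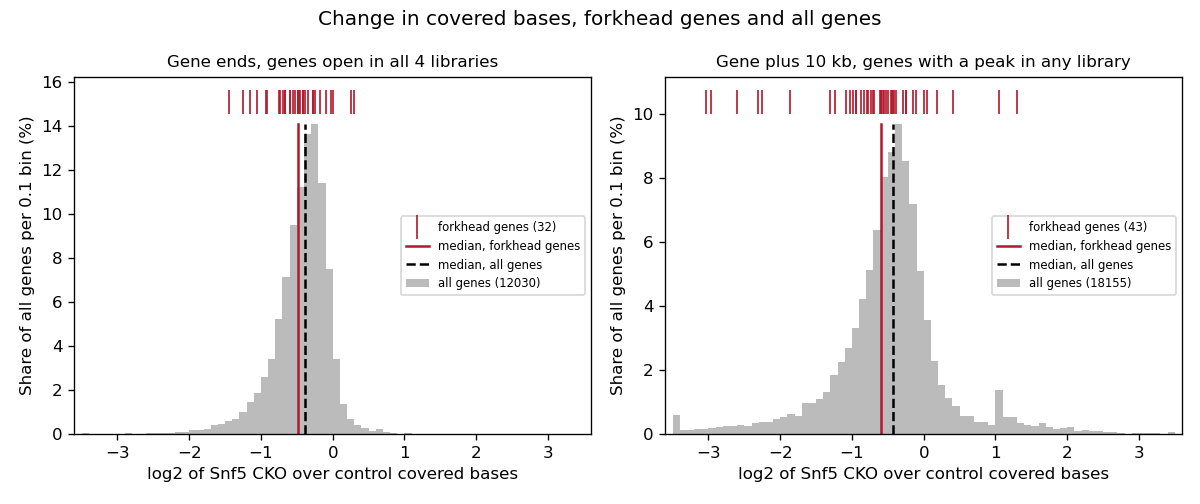
Log2 ratio of mean covered bases, Snf5 CKO over control, for forkhead genes (red marks) and all genes (grey, percent of genes per bin), at gene ends of kept genes (left) and in the gene plus 10 kb (right, with 100 bp added to each mean, so that genes with no Snf5 CKO peak have a value). The medians are −0.48 for forkhead and −0.38 for all genes on the left, and −0.60 and −0.43 on the right.

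Peak cover was also read by distance from the start site. At 1000 bp downstream of the start site, 5 and 5 of the 24 members with 1 RefSeq start site (20.8% and 20.8%) lay under a peak in Snf5 CKO 1 and 2, against 10 and 10 (41.7% and 41.7%) in Control 1 and 2. Over all 14731 such genes the shares were 3.28% and 3.06% in Snf5 CKO, against 7.88% and 7.85% in the controls. At the start site itself 13 and 12 of the 24 members were covered in Snf5 CKO, against 15 and 15 in the controls. The shares of all 14731 genes there were 54.0% and 51.2% in Snf5 CKO, against 57.1% and 57.0% in the controls. At 500 bp upstream 6 and 3 of the 24 were covered in Snf5 CKO, against 8 and 7 in the controls. All genes were lower there too, with 15.0% and 13.0% in Snf5 CKO, against 23.8% and 23.0% in the controls.

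**Figure D4:**
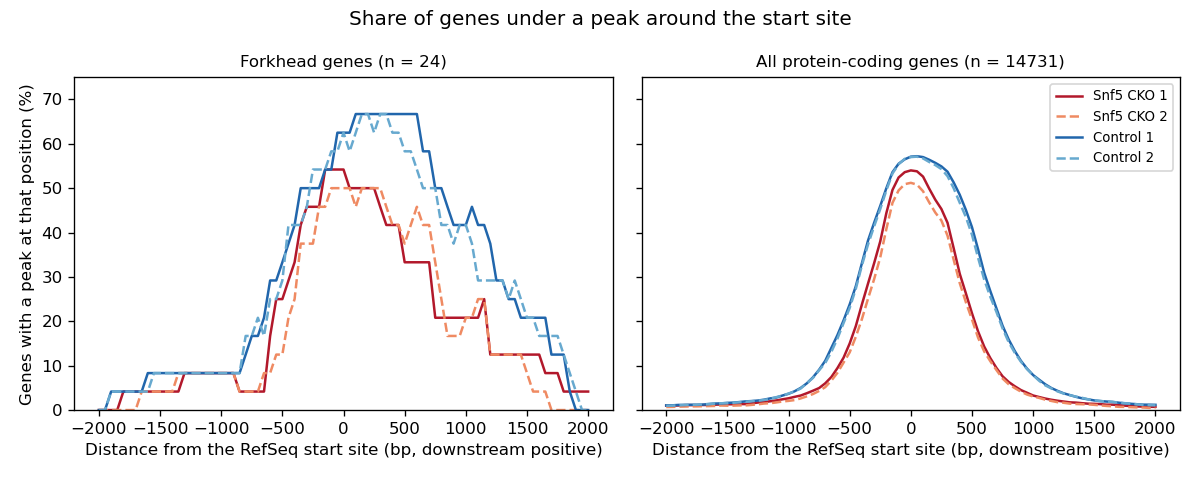
Percent of genes with a peak at each distance (bp) from the RefSeq start site, downstream positive, for the 24 forkhead genes (left) and all 14731 genes (right) with 1 start site, a line per library. At 1000 bp downstream 20.8% of forkhead genes are covered in each Snf5 CKO library and 41.7% in each control.

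The outer edges of the peaks that reach within 1 kb of the start site could be followed at 18 members. Edge positions were signed, and negative where the edge had passed the start site. Nearer means a lower signed position, so an edge shifted inward, and farther means the reverse. The downstream edge was nearer in this sense in both Snf5 CKO libraries at 14 (77.8%), beside 71.1% of all genes, and farther at 0, beside 1.90%. The median shift was −254 bp, beside −158 bp for all genes. The upstream edge was nearer at 11 (61.1%), beside 54.6%, and farther at 0, beside 5.18%, with a median shift of −121 bp, beside −87.0 bp. Not all of these edges were closer to the start site in distance. At Foxb2 the upstream edge lay at −650 and −558 bp in Snf5 CKO, against −146 and −263 bp in the controls. Foxd4 upstream and Foxa3 downstream likewise had passed the start site and lay at a greater distance from it in Snf5 CKO. At Foxe3 the upstream distances overlapped. At Foxd2 the downstream edge lay at 253 and 359 bp in Snf5 CKO, against 1221 and 1592 bp in the controls. At Foxr1 the downstream edge lay at 42 bp in Snf5 CKO 1 and 49 bp short of the start site in Snf5 CKO 2, against 387 and 366 bp in the controls. This measure leaves out a split-off peak that begins beyond 1 kb. With every peak base within 2 kb of the start site read alike in each library, chosen after the data were seen, the downstream edge was again nearer at 14 of 18 members, beside 70.5% of all genes, but not at the same genes. Foxo1 then overlapped, with 2000 and 1540 bp in Snf5 CKO, against 1688 and 1911 bp in the controls, where 2000 bp is the limit of the window. Foxc1 then had 916 and 795 bp in Snf5 CKO, against 1874 and 1852 bp in the controls. The count of members with a farther downstream edge was 1 without Snf5 CKO 2 and 1 without Control 2. The count with a farther upstream edge was 1 without Snf5 CKO 1, 4 without Snf5 CKO 2 and 2 without Control 2.

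Within the peaks, the same DNA was mostly covered. At the gene ends of all members, 23742 bases were covered in both Snf5 CKO libraries, and 577 of these (2.43%) were covered in neither control. In turn 35922 bases were covered in both controls, and 8282 of these (23.1%) in neither Snf5 CKO library. Over all genes these shares were 0.996% and 17.8%. In the gene plus 10 kb they were 6.74% and 27.8% for the members, and 5.62% and 22.9% for all genes.

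The peaks in the gene plus 10 kb of the members merged into 146 regions, 5 of them shared by Foxc2 and Foxl1 and 1 by Foxd2 and Foxe3. Of the 146, 56 (38.4%) had a peak in all 4 libraries, 12 (8.22%) were lost and 2 (1.37%) gained, beside 29.4%, 7.58% and 5.08% of all 66058 merged regions. Within 10 kb of any protein-coding gene the shares were 35.7% kept, 8.58% lost and 3.85% gained. Of the lost regions, 4 were at the end of a forkhead gene and 8 elsewhere. Foxp1 and Foxn2 each had a distal one: in Foxp1, 21827 bp from its end, both Snf5 CKO libraries had no peak against 691 and 347 bp in the controls, and beside Foxn2, 8379 bp away, none against 608 and 663 bp. The count of lost regions was 5 when a −log10 q of at least 3 was asked for presence. It was 19 without Snf5 CKO 1, 28 without Control 1 and 31 without Control 2. The count of gained regions was 26 without Snf5 CKO 2 and 5 without Control 2. Of the 146 regions 59 had a peak in 1 library alone.

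Genes that act with forkhead proteins mostly kept their gene-end peaks. Of 28 FOXO regulators, which include the Akt genes, 22 were open in both controls and all 22 were kept. At 17 of them covered bases were lower in both Snf5 CKO libraries, and at 2 higher, with a median log2 ratio of −0.25. Of 20 FOXO targets, such as Cdkn1b, 16 were open in both controls and kept, 12 of them with fewer covered bases and none with more, with a median of −0.53. All 22 FOXM1 partners and targets were kept, 18 with fewer and 1 with more covered bases, with a median of −0.55. Over all kept genes 74.9% were lower and 1.66% higher, and the median was −0.38. No gene of these 3 lists was lost or gained, beside 4.84% and 0.534% of all genes, and 89.6% of all genes open in both controls were kept.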

How the data were processed

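For each of the 4 libraries the authors deposited its own broad peaks. The submitters' processing notes name the build mm10 and the tools MACS2 2.2.7.1, Picard 2.25.2, SAMtools 1.10, Bowtie2 2.4.2 and Trim Galore 0.6.5, without their roles. How thresholds were set, duplicates treated or the transposase offset corrected is not given in the sources used here. A deposited peak carries its position, a fold enrichment, a −log10 p, a −log10 q and a score, which is the −log10 q times 10 without its decimals. The authors' fold was used only to describe peaks.

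Genes came from the RefSeq table of GRCm38.p6, and start sites and promoters from its promoter table. Covered bases, presence by at least 1 bp and merged regions were computed in Python 3.11.15 with numpy 2.4.6 and pandas 2.3.3, and checked on simulated peak lists with known answers. Lost means a peak in both controls and in neither Snf5 CKO library, gained the reverse, kept a peak in all 4. No reads were counted, so depth is unknown and no interval is given. The members, gene groups and lists were chosen with earlier results of these data known. Named were members lost or gained, those whose groups did not overlap with a log2 ratio beyond 1, and 11 members fixed by name, with examples from each group. The scaling, start-site profile, peak edges and shared bases are described in the text, and the last 3 were chosen after the data were seen. The values of 1 member are not reported here, though the counts include it.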

Additional observations from a re-analysis of the deposited data

How the results depend on the processing

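No paired analysis was possible because the results come from no test, and no label ties replicate 1 or 2 of the groups to each other. Among the alternative values of the counts and medians, 104 stayed within 1.5 times the count or within 1 SD of the median and 28 moved. No median reversed its sign. A count has no sign to reverse. With start sites alone, which 27 members have, 2 were lost (Foxi2 and Foxn4), 20 kept and 18 had fewer covered bases, out of fewer genes. With scaling by total covered length, 14 had fewer and 4 more covered bases at the gene ends, 5 had more in the gene plus 10 kb, and the medians were −0.16 and −0.27. With windows of 500 bp 1 member had more covered bases at its ends and the median was −0.25, beside −0.22 for all genes. With peaks of −log10 q 3 or more alone 2 had more at the ends and 3 in the gene plus 10 kb, and with lists of the same length 2 did. With that threshold for presence alone 5 regions were lost. Without 1 library in turn, members with more covered bases numbered 0 to 3 at the gene ends and 1 to 7 in the gene plus 10 kb, lost members 4 to 5, members with a farther start-site edge 0 to 4 upstream and 0 to 1 downstream, lost regions 13 to 31 and gained regions 2 to 26. The medians ranged from −0.59 to −0.39 at the gene ends and from −0.83 to −0.37 in the gene plus 10 kb. The count of lost members was 3 to 5 with all 43 genes, but the genes were not the same: only Foxi2 was lost under every alternative, and Foxa3, Foxb1, Foxd3, Foxe1, Foxf1, Foxh1 and Foxp1 were each lost under at least 1. The causes of these shifts were not tested. Depth is unknown, so DNA outside the peaks may still have been accessible.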
